A study of Mus musculus with 16 samples.

Results

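The genes described here are 48 ribosome biogenesis factors, proteins that make ribosomal RNA (rRNA) and assemble it with ribosomal proteins in the nucleolus. They were chosen by symbol as a functional module and found in the files by Ensembl gene identifier. All 48 were matched among 55414 genes, and all 48 passed the filter on low counts that left 25081 genes for testing. By role, 16 act in the small subunit processome and the later steps of small subunit maturation, and 18 in large subunit assembly. A further 6 belong to small nucleolar ribonucleoproteins (snoRNPs), 4 to the RNA polymerase I apparatus, and 4 are nucleolar proteins with several roles.

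RNA was measured in 16 mouse libraries, 8 labelled Nat10-deficient and 8 wild type (WT), with 2 files for each genotype at 0, 1, 3 and 5 h of 5 µM actinomycin D, an inhibitor of RNA synthesis. Nat10 is the enzyme that writes the acetyl mark ac4C on RNA, and the design text gives the purpose as measuring the lifetime of mRNAs. Both genotypes were grown alike, as lineage-depleted bone marrow in StemSpan medium with 10 ng/mL stem cell factor, 20 ng/mL thrombopoietin, heparin and antibiotics, and both received the drug. The sorted population is labelled LT-HSC (long-term haematopoietic stem cells), whereas titles read 32D, the name of a mouse myeloid line. The titles write the tested genotype as Nat10-/-, the genotype label says Nat10 deficiency, and neither a strain, an age nor a Cre driver is given. The protocols speak of 2 biological replicates. In 8 of 8 groups, however, the headers of both files name a single alignment, and the files of a group differed little, with a chi-square per degree of freedom of 1.43 to 1.81 over genes, against 47.9 to 256 between neighbouring times. The p-values from these pairs therefore measure only the spread between files, which may be technical. A fit on the 8 summed libraries is set beside them. Its spread for slopes and for 0 h is the departure of the courses from a straight line over the hours. It is not a spread between replicates.

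In the nucleolus, RNA polymerase I transcribes a long rRNA precursor, and snoRNPs guide chemical marks and cuts on it. The small subunit processome folds and trims the part that becomes the small subunit, while a chain of helicases, GTPases and scaffold proteins builds the large subunit. Genes for these factors are usually active in cells that grow and divide, many as targets of Myc, and stem cells that rest are known for low protein synthesis.

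Total counts ran from 13516675 to 17274128 in Nat10-deficient-labelled libraries and from 9142413 to 14000072 in WT libraries. Spike-in ERCC RNA, added in equal amount per the labels, took 0.0221 to 0.129% of counts in Nat10-deficient-labelled libraries and 1.79 to 2.92% in WT. Nat10 mRNA itself was higher in Nat10-deficient-labelled libraries before the drug and from 3 h on, and slightly lower at 1 h, with 88.3 and 91.3 CPM (counts scaled to library size with TMM factors) at 0 h against 71.8 and 71.0 CPM in WT. The values were 72.3 and 76.5 CPM against 78.2 and 83.8 CPM in WT at 1 h, a log2 difference of -0.12 ± 0.053 (SE, adjusted p = 0.0421, edgeR), and 98.3 and 100.6 CPM against 46.5 and 39.5 CPM at 3 h. At 5 h Nat10 stood at 136.6 and 151.5 CPM against 38.5 and 35.2 CPM, and counts over a whole gene do not check the loss of an exon. With files summed, Nat10 differed by -0.01 at 0 h on a line over the hours (adjusted p = 1) and by 0.85 over the mean of the times (adjusted p = 0.266, edgeR), and neither passed. The 15 stem cell markers were all detected in every library, with summed levels of 388 to 1153 CPM against 1054 to 2519 CPM in WT, and 14 of 15 were lower over the mean of the times. Immunoglobulin genes took 6.44, 9.02, 24.5 and 3.90% of gene counts at 0, 1, 3 and 5 h in Nat10-deficient-labelled libraries and 3.62, 25.6, 49.4 and 59.5% in WT. Summed markers of neutrophils and monocytes ran from 8304 to 19830 CPM against 2516 to 10947 CPM in WT, and 6 of 11 were higher and 5 lower over the mean of the times. Erythroid markers summed to 3567 to 12492 CPM against 2220 to 3540 CPM in WT. Eosinophil markers summed to 1098 to 6103 CPM against 177 to 3808 CPM, with 5 of 5 higher over the mean, and mast cell and basophil markers to 323 to 4230 CPM against 85.1 to 907 CPM, with 8 of 8 higher. At 1 h, however, the mast cell and basophil markers summed to 747 CPM against 904 CPM in WT, with 3 of 8 higher and 4 lower. The part of these cell types in the results that follow was not tested. In sorted bulk samples, fewer cells of a type and less RNA per cell cannot be told apart.

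Before the drug, the factors differed widely in level per length, given as RPKM (CPM per kilobase of exon, with TMM factors). The nucleolar proteins with several roles were the most abundant set, with a median of 84.1 RPKM over the 4 libraries at 0 h and a range of 52.2 to 194. Npm1, nucleophosmin, a histone chaperone that also acts late in large subunit export, had the highest level, with 226 RPKM in Nat10-deficient-labelled libraries and 161 RPKM in WT. Ncl, nucleolin, which acts in rRNA transcription and early processing, followed with 127 RPKM against 83.5 RPKM in WT. Npm1 has processed pseudogenes in the mouse, so its counts are uncertain to the extent that reads were shared with them.

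Among snoRNP proteins the median was 53.5 RPKM and the range 9.18 to 74.2. Nop10, a core protein of the box H/ACA particles that guide pseudouridylation, was highest of these at 87.1 RPKM against 61.4 RPKM in WT, and Gar1, another core protein of the same particles, was lowest at 9.53 against 8.82 RPKM. The large subunit factors had a median of 29.8 RPKM and a range of 1.25 to 68.0. At the top of that range stood Rrs1, which brings the smallest rRNA into the large subunit, and Ebna1bp2, which acts in precursor processing in yeast. At its bottom was Ddx51, a helicase of large subunit rRNA maturation, with 0.953 RPKM against 1.55 RPKM in WT. Small subunit factors had a median of 20.3 RPKM, led by Nob1, the nuclease that makes the final cut at the end of the small subunit rRNA, and Utp4, a scaffold protein of the processome. The polymerase I genes were the lowest set with a median of 13.7 RPKM, and Rrn3, the factor that makes the polymerase competent to start, led them at 44.0 RPKM against 35.8 RPKM in WT.

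Promoters bear on whether the members share a sequence. The RefSeq promoter table (GRCm38.p6) held 43 of the 48 members with 52 promoters, and Bop1, Gnl2, Npm1, Rrp12 and Rrs1 are named only. Searched over the 250 bases upstream of the start, the E-box CACGTG, the site bound by Myc with Max, stood in 2 of 52 member promoters (3.85%), against 6.02% of 32851 promoters in the table. It was present in 11 of 93 promoters (11.8%) of other ribosome biogenesis genes. The ETS-type motif CCGGAAG, on either strand, was found in 12 of 52 member promoters (23.1%), against 6.91% of all promoters and 33.3% of those of the other ribosome biogenesis genes. The palindromic NRF1 motif was in 0 of 52 member promoters and in 0.782% of all. E-box and ETS-type motif do not overlap in letters, and 1 member promoter held both. The 2 member promoters with an E-box, and for contrast that of Ncl, the most abundant member in the table without one, are shown 5′ to 3′ on the strand of the gene. Capitals mark CACGTG, and the last base lies just before the RefSeq start. The Rrn3 window is chr16:13780449-13780698 on the plus strand with 2 matches, whose first letters lie 215 and 48 bases upstream of the start. Utp18, a processome protein, has its window at chr11:93885767-93886016 on the minus strand with 1 match 20 bases upstream, and the Ncl window is chr1:86359456-86359705 on the minus strand.
Rrn3: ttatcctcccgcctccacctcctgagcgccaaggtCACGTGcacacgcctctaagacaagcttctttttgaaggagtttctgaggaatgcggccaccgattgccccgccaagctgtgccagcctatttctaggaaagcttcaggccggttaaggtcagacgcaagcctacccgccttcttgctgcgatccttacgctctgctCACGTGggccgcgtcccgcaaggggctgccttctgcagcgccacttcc
Utp18: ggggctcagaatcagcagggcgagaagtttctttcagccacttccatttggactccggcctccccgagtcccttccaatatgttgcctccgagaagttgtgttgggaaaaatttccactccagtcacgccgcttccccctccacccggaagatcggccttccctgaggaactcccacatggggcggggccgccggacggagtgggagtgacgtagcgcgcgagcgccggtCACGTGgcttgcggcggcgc
Ncl: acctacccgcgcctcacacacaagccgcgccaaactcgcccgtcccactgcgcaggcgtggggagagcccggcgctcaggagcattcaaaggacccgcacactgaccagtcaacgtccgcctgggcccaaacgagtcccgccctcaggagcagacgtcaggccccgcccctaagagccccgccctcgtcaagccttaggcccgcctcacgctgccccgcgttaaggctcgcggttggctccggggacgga
A match is a description of letters and not a bound site, and the absence of these letters from one window says nothing of other windows. Rrn3 and Utp18 also went different ways in the comparison of genotypes that follows: at 0 h their log2 differences were 0.30 ± 0.036 and -0.32 ± 0.11 (SE), both past the threshold.

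At 0 h, before actinomycin D could act, 37 of the 48 factors were higher in Nat10-deficient-labelled libraries than in WT, 4 were lower and 7 did not pass (edgeR quasi-likelihood F test, Benjamini-Hochberg adjusted p under 0.05 over all genes). Of all genes tested, 36.0% were higher and 24.2% lower. Among the 8613 genes at least as abundant as the least abundant member, these shares were 51.1% and 25.0%. The median log2 difference of the factors was 0.41, against 0.10 for all genes and 0.17 for genes of that abundance, and 10 factors passed as higher with at least 1.5-fold, against 24.0% of all genes. With the same minimum 2 factors, Ddx51 and Noc2l, passed as lower, against 18.2% of all genes. Both files labelled Nat10-deficient lay above both WT files for 40 factors and below for 6, against 43.9% and 31.5% of all genes.

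Rrs1 showed the largest difference at 0 h, with 189.8 and 188 CPM in Nat10-deficient-labelled libraries against 92.4 and 86.4 CPM in WT, a log2 difference of 1.08 ± 0.044 (SE, adjusted p = 7.63e-65, edgeR). Its groups were far apart relative to the gap between files. Rrp1b, a large subunit factor that also takes part in splicing control, had 42.3 and 44.9 CPM against 24.8 and 26.3 CPM, a difference of 0.77 ± 0.075. For Pes1, the scaffold of the PeBoW complex that matures large subunit rRNA, values were 122 and 126 CPM and, in WT, 74.5 and 75.2 CPM (0.73 ± 0.044). Brix1, another large subunit factor, had 158 and 159 CPM against 92.5 and 99.3 CPM (0.72 ± 0.043). All 4 genes with the largest differences at 0 h were large subunit factors, and in each the pairs did not overlap. Ddx51 and Noc2l, the lowest at 0 h, were large subunit factors too. The role's median at 0 h was 0.30, as for snoRNP genes (0.30). It was 0.48 for small subunit factors, 0.42 for polymerase I genes and 0.38 for the proteins with several roles.

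Of the 4 factors that were lower at 0 h, 3 were among the least abundant per length. Ddx51 had 4.54 and 5.46 CPM against 7.68 and 8.54 CPM in WT, a log2 difference of -0.69 ± 0.16 (adjusted p = 8.43e-05, edgeR). Noc2l, a nucleolar large subunit factor that also binds histones, had 9.94 and 10.3 CPM against 14.6 and 15.8 CPM (-0.59 ± 0.12), and 14.4% of its exonic bases are shared with Samd11. Utp18 stood at 17.7 and 17.8 CPM against 22.1 and 22.3 CPM (-0.32 ± 0.11). Nop58, a core protein of box C/D snoRNPs and far more abundant, had 488 and 491 CPM against 527 and 529.7 CPM (-0.11 ± 0.027). Ddx51 has a neighbour in the list, since Noc4l, a small subunit factor, starts 33 bases away on the other strand of chromosome 5. Noc4l was more abundant, with 35.9 RPKM against 26.5 RPKM in WT, and it was higher in Nat10-deficient-labelled libraries (0.44 ± 0.049). With ERCC scaling, which moved all genes by 6.13 at 0 h, all 48 factors were higher, the 4 lower ones included. So were 87.3% of all genes and 8611 of the 8613 genes of similar abundance.

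When the files of each group were summed to 1 library, the 0 h difference had to be read from a straight line over the hours in each genotype, so both the summing and the line set this value apart from the one above. By it 0 members passed at 0 h in edgeR, 5 had an unadjusted p under 0.05, and 0 of all genes passed (1240 at an unadjusted p under 0.05). Scaling on 28 long-lived mRNAs instead of TMM shifted all genes by -0.40 and gave 16 factors higher and 20 lower at 0 h, against 20.9% and 39.4% of all genes.

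**Figure D1:**
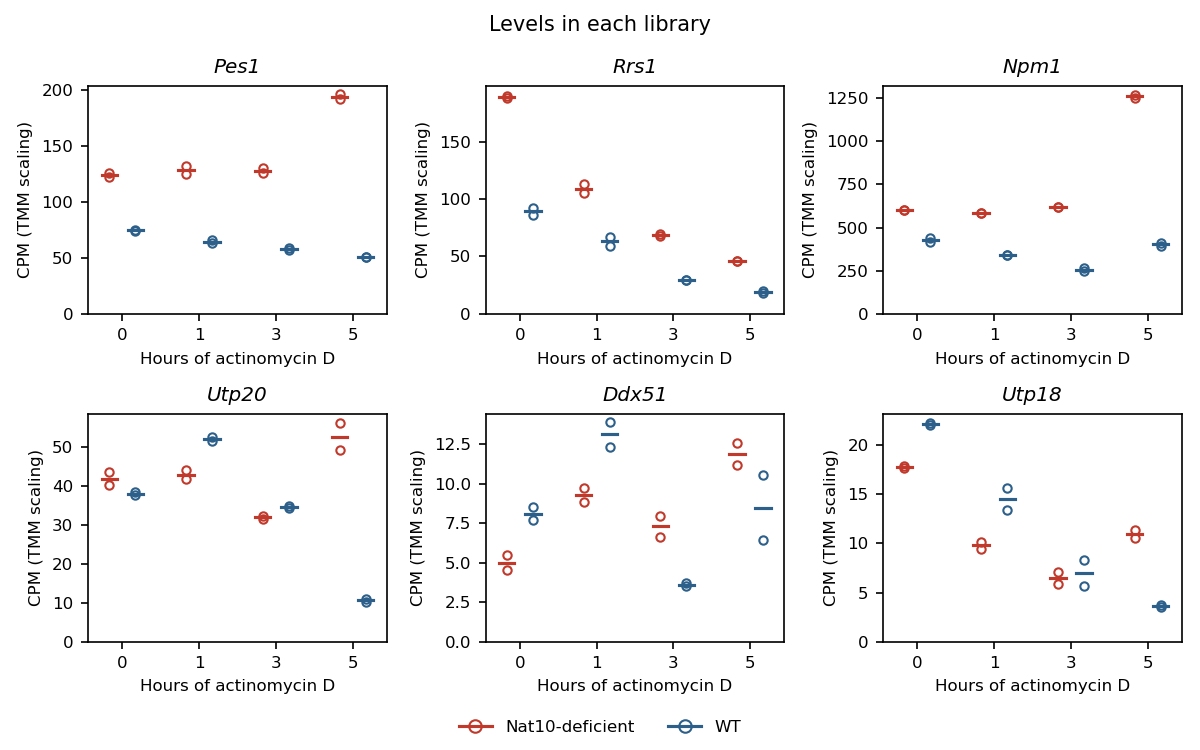
Level of 6 factors in each library, in CPM scaled with TMM factors, by hours of actinomycin D. Circles are files and lines are group means, with Nat10-deficient-labelled libraries left of WT. Pes1, Rrs1 and Npm1 lay higher in Nat10-deficient-labelled libraries at every time, whereas Utp20, Ddx51 and Utp18 changed order between times.

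After the block, the difference was larger with TMM scaling. At 1 h, 43 factors were higher and 3 lower in Nat10-deficient-labelled libraries, against 32.4% and 31.8% of all genes (50.9% and 29.2% at similar abundance), with a median log2 difference of 0.68 (all genes 0, genes of similar abundance 0.18). At 3 h, 44 were higher and 0 lower, against 30.4% and 37.0% of all genes (56.5% and 23.1% at similar abundance), with a median of 0.91 (all genes -0.07, similar abundance 0.36). At 5 h, 46 were higher and 0 lower, against 34.2% and 30.1% (52.7% and 32.2% at similar abundance), with a median of 0.98 (all genes 0.10, similar abundance 0.32). With TMM scaling the difference was larger than at 0 h for 36, 39 and 44 of the 48 factors at 1, 3 and 5 h, against 47.4%, 46.0% and 51.7% of all genes and 55.3%, 61.6% and 57.3% of those of similar abundance. With ERCC scaling it was larger for 19, 17 and 31 factors, against 33.0%, 28.3% and 38.3% of all genes, and the factors' median was 6.55, 6.42, 6.36 and 6.62 at 0, 1, 3 and 5 h. The widening of the factors' own median at 1 and 3 h thus held only with TMM of these 2 scalings. Relative to the median of all genes, the factors' median widened with both. With ERCC it lay 0.31, 0.78, 1.17 and 1.00 above that of all genes at 0, 1, 3 and 5 h. With TMM it lay 0.31, 0.68, 0.97 and 0.88 above. The median of genes of similar abundance also lay above that of all genes, by 0.08, 0.28, 0.63 and 0.34 with ERCC. With TMM it did so by 0.07, 0.18, 0.43 and 0.22, so part of the factors' gap is shared by genes as abundant. With TMM, 31, 35 and 39 factors were higher by at least 1.5-fold at 1, 3 and 5 h and 0 were lower by as much, against higher shares of 23.5%, 23.7% and 29.6% of all genes. Both files labelled Nat10-deficient lay above both WT files for 45, 44 and 46 factors, against 39.4%, 37.1% and 43.8% of all genes.

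Utp4 led at 1 h, with 98.3 and 110.0 CPM in Nat10-deficient-labelled libraries against 44.1 and 44.4 CPM in WT, a log2 difference of 1.23 ± 0.056. Bop1, the partner of Pes1 in PeBoW, had 65.9 and 63.7 CPM against 29.1 and 30.5 CPM (1.12 ± 0.068). Ebna1bp2 stood at 290.5 and 271 CPM against 132 and 139 CPM (1.05 ± 0.036), and Mybbp1a, a nucleolar protein that binds p53 and restrains polymerase I, at 455 and 452 CPM against 214 and 228 CPM (1.04 ± 0.03). The 3 factors below WT at 1 h were Utp18 (-0.55 ± 0.13), Ddx51 (-0.50 ± 0.14) and Utp20 (-0.28 ± 0.07), the last a very large scaffold protein of the processome. Ubtf, which binds and opens the rRNA genes, had 127 and 127 CPM against 122 and 123 CPM at 1 h (0.05 ± 0.043, adjusted p = 0.305, edgeR), while it had passed as higher at 0 h.

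Nop16, a large subunit factor known as a Myc target, had the largest difference at 3 h, with 64.1 and 63.8 CPM against 20.8 and 19.6 CPM in WT (1.66 ± 0.091). Noc3l, which links large subunit assembly to replication in yeast, followed at low counts with 20.0 and 15.1 CPM against 5.93 and 6.82 CPM (1.46 ± 0.18). Rrp9, a protein of the snoRNP that anchors the processome, had 87.6 and 86.2 CPM against 35.8 and 34.4 CPM (1.31 ± 0.074), and Gar1 had 16.3 and 17.4 CPM against 7.01 and 6.82 CPM (1.28 ± 0.17). In all 4 the pairs of files were separate. The 4 smallest differences at 3 h belonged to Rrp1b (-0.12 ± 0.11), Utp18 (-0.12 ± 0.21), Utp20 (-0.12 ± 0.095) and Nop14 (-0.03 ± 0.088), and none of these passed (adjusted p from 0.278 to 0.76, edgeR).

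At 5 h the largest difference was that of Utp20, with 49.2 and 56.3 CPM in Nat10-deficient-labelled libraries against 10.3 and 11.0 CPM in WT (2.32 ± 0.13, adjusted p = 2.06e-46, edgeR). The same gene was called lower at 1 h. Pes1 had 192 and 196 CPM against 50.8 and 51.1 CPM (1.93 ± 0.062), Npm1 1269 and 1253 CPM against 413 and 393 CPM (1.64 ± 0.029), and Nhp2, a core protein of box H/ACA particles, 154 and 144 CPM against 46.9 and 48.8 CPM (1.64 ± 0.069). Gnl3, nucleostemin, a GTPase known for high levels in stem and progenitor cells, did not pass at 5 h, with 71.2 and 68.4 CPM against 75.2 and 76.5 CPM (-0.12 ± 0.065). Neither did Tsr1, a late small subunit factor, with 43.5 and 45.4 CPM against 44.2 and 47.6 CPM (-0.04 ± 0.085). For Tsr1, 32.3% of exonic bases are shared with Srr, and counting ignored strand, so its values are uncertain. Brix1 (0.19 ± 0.07) and Nop56, the partner of Nop58 in box C/D particles (0.37 ± 0.047), passed with small differences.

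**Figure D2:**
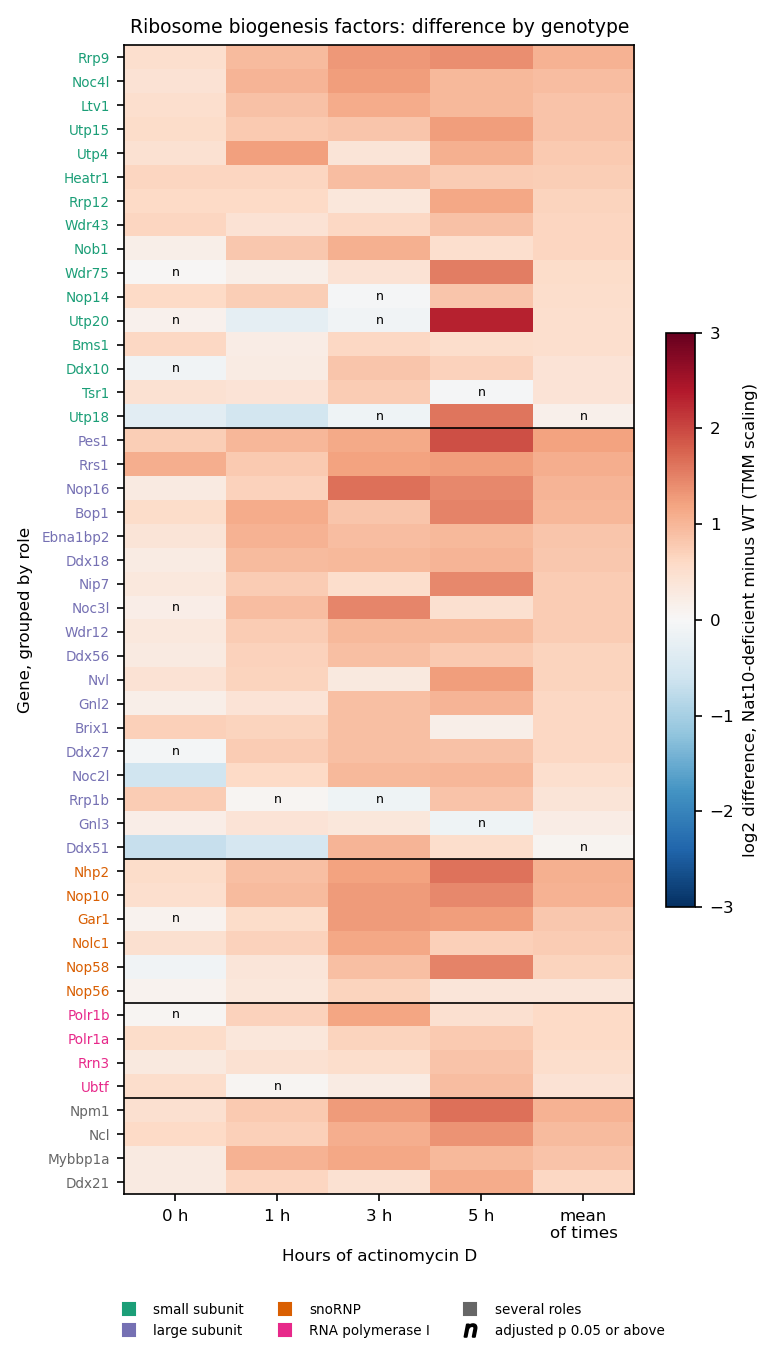
Log2 difference of each factor, libraries labelled Nat10-deficient minus WT with TMM scaling, at 4 times and for their mean (columns). Genes are grouped by role and ordered by the mean, and n marks an adjusted p of 0.05 or above. Red prevails in every role, and the blue fields without n at 0 and 1 h are Ddx51, Noc2l, Utp18, Nop58 and Utp20.

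Over the mean of the 4 times, 46 of the 48 factors were higher in Nat10-deficient-labelled libraries and 0 were lower, against 31.6% and 21.6% of all genes (58.2% and 28.1% of genes of similar abundance). The median log2 difference was 0.66, against 0.11 for all genes and 0.25 for those of similar abundance, and 34 passed as higher with at least 1.5-fold, against 20.0% of all genes. Ddx51 (0.09 ± 0.098, adjusted p = 0.576, edgeR) and Utp18 (0.15 ± 0.093, adjusted p = 0.182) did not pass. By single times, 32 factors were called higher at all 4 times, 12 at 3, and 5 were called lower at some time and higher at another. These patterns were not counted over all genes. At 0, 1, 3 and 5 h, 36.0%, 32.4%, 30.4% and 34.2% of all genes were higher. Among genes of similar abundance the shares were 51.1%, 50.9%, 56.5% and 52.7%.

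Every role moved, by different amounts. The 4 nucleolar proteins with several roles were all higher, with a median of 0.90, and Npm1 (1.04 ± 0.014) and Ncl (0.94 ± 0.012) had the largest differences there. Npm1 read 603 and 604 CPM at 0 h, 582 and 583 CPM at 1 h, 622 and 616 CPM at 3 h and 1269 and 1253 CPM at 5 h in Nat10-deficient-labelled libraries. In WT the same gene read 442 and 418 CPM at 0 h, 339 and 342 CPM at 1 h, 248 and 265 CPM at 3 h and 413 and 393 CPM at 5 h, so its groups were separate at each time. Ncl read 1294 and 1288 CPM at 0 h, 1101 and 1127 CPM at 1 h, 1182 and 1188 CPM at 3 h and 2099 and 2112 CPM at 5 h against, in WT, 841 and 859.7 CPM at 0 h, 666 and 682 CPM at 1 h, 563 and 549 CPM at 3 h and 818 and 841 CPM at 5 h. All 6 snoRNP genes passed as higher, with a median of 0.78. Within this role, the box H/ACA proteins Nhp2 (1.08 ± 0.032), Nop10 (1.05 ± 0.029) and Gar1 (0.80 ± 0.072) had larger differences than the box C/D proteins Nop58 (0.66 ± 0.017) and Nop56 (0.37 ± 0.022). That contrast itself was not tested. Nolc1, a chaperone of snoRNPs, lay between them (0.76 ± 0.018). Rrp9, a protein of the snoRNP that anchors the processome, is listed with the small subunit factors and differed by 1.04. Fbl, Snu13 and Dkc1, among the other ribosome biogenesis genes, were left out of this contrast too.

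Of the 18 large subunit factors 17 were higher, with a median of 0.71. Pes1 had the largest mean difference of all 48 (1.20 ± 0.027), with 122 and 126 CPM at 0 h, 132 and 125 CPM at 1 h, 130.3 and 126 CPM at 3 h and 192 and 196 CPM at 5 h in Nat10-deficient-labelled libraries. Its WT values were 74.5 and 75.2 CPM at 0 h, 65.6 and 63.5 CPM at 1 h, 57.1 and 58.8 CPM at 3 h and 50.8 and 51.1 CPM at 5 h. Both partners of Pes1 in PeBoW passed as well, Bop1 with 1.00 ± 0.037 and Wdr12 with 0.75 ± 0.025. Rrs1 (1.08 ± 0.036) stood second among all 48, and Nop16 reached 1.01 ± 0.036. The helicases Ddx18, Ddx27 and Ddx56 differed by 0.80, 0.62 and 0.66, and Gnl3 had the smallest difference of those that passed (0.21 ± 0.027).

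Of the 16 small subunit factors 15 were higher, with a median of 0.64. Rrp9 (1.04 ± 0.031), Noc4l (0.92 ± 0.031) and Ltv1, an export adaptor of the small subunit (0.87 ± 0.038), led the role. The processome proteins tied to rRNA transcription in yeast and human cells, Utp4, Utp15, Heatr1, Wdr43 and Wdr75, all passed, with 0.79, 0.86, 0.74, 0.64 and 0.54. Nob1, the most abundant of the role, read 134 and 124 CPM at 0 h, 128 and 128 CPM at 1 h, 98.5 and 103 CPM at 3 h and 99.3 and 103 CPM at 5 h against, in WT, 115 and 113 CPM at 0 h, 70.6 and 75.8 CPM at 1 h, 49.3 and 47.0 CPM at 3 h and 77.3 and 65.6 CPM at 5 h. The polymerase I genes had the smallest median, 0.56, and all 4 passed. Rrn3 read 191 and 189 CPM at 0 h, 167 and 166 CPM at 1 h, 166 and 171 CPM at 3 h and 219 and 224 CPM at 5 h in Nat10-deficient-labelled libraries and 153 and 156 CPM at 0 h, 120.2 and 124 CPM at 1 h, 114 and 118 CPM at 3 h and 123 and 122 CPM at 5 h in WT. Polr1a and Polr1b, the catalytic subunits, differed by 0.59 ± 0.029 and 0.60 ± 0.04, and Polr1b did not pass at 0 h (0.06 ± 0.06).

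Across the 48 factors, the mean difference was larger in genes with a shorter exonic length and in those with a higher level per length. The correlation with log2 exonic length was r = -0.42 (rho = -0.50), and that with log2 level per length at 0 h was r = 0.53 (rho = 0.47). The exonic length joins all annotated exons of a gene, so it is not the length of a transcript. It is also the divisor of the level per length, and the 0 h libraries enter both that level and the mean difference. Both correlations describe 48 genes of the same 16 libraries, which share depth and scaling.

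Other genes moved with these. All 15 S phase genes were higher over the mean of the times, with a median of 1.03 and summed levels of 3509 to 4593 CPM in Nat10-deficient-labelled libraries against 1663 to 2234 CPM in WT, and their part in the result was not tested. The stem cell markers, with a median of -1.09 over the mean of the times, moved the other way, but not at 3 h. Their medians were -1.44, -1.43, 0.02 and -1.81 at 0, 1, 3 and 5 h. At 3 h 7 of 15 were higher and 6 lower. The factors' share of gene counts was 0.931, 0.863, 0.599 and 1.03% at 0, 1, 3 and 5 h against 0.836, 0.521, 0.259 and 0.193% in WT. Without immunoglobulin counts it was 0.995, 0.948, 0.794 and 1.07% against 0.867, 0.700, 0.512 and 0.477%, so the genotypes were also apart at each time when those genes were left out. With TMM factors computed without immunoglobulin genes, 47 factors were higher over the mean of the times, against 35.5% of all genes.

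The rest of the pathway was read from 102 other ribosome biogenesis genes, of which 95 were matched and tested. Over the mean of the times 86 were higher, 4 lower and 5 did not pass, with a median of 0.60. The highest were Taf1a, a subunit of the selectivity factor of polymerase I (1.54 ± 0.17), Nufip1, a snoRNP assembly factor (1.31 ± 0.057), and Nol10, a processome protein (1.27 ± 0.054). The lowest were Utp23, a processome protein (-0.27 ± 0.077), Taf1b, the partner of Taf1a (-0.21 ± 0.084), and Riok1, a kinase of late small subunit maturation (-0.18 ± 0.033). The extremes varied between times. Taf1a had log2 differences of 1.10, -1.44, 0.85 and 5.66 at 0, 1, 3 and 5 h, and Utp23 had 1.14, -0.19, -0.05 and -1.97, with a mean of 0.30 when 5 h was left out. At 0, 1, 3 and 5 h, 70, 75, 73 and 74 of the 95 were higher and 3, 8, 2 and 9 lower. The shares of all genes were 36.0%, 32.4%, 30.4% and 34.2% higher and 24.2%, 31.8%, 37.0% and 30.1% lower.

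With files summed, 0 of the 48 factors passed over the mean of the times in edgeR, although 37 had an unadjusted p under 0.05 and the median was 0.67, and 8 of all genes were higher and 9 lower. In that fit the spread is the genotypes' change from time to time, since each group has 1 library. Scaling on long-lived mRNAs gave 26 factors higher and 9 lower with a median of 0.09, against 13.7% and 38.7% of all genes and their median of -0.41.

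The second question is how the factors' mRNAs changed over the hours of the block. Scaled on ERCC RNA, all 48 factors fell over 0, 1, 3 and 5 h in both genotypes (edgeR). In Nat10-deficient-labelled libraries 71.3% of all genes fell and 3.19% rose, and in WT 57.4% fell and 11.1% rose. Among genes of similar abundance 99.7% fell and 0.139% rose, against 94.9% and 3.94% in WT. The count of falling factors is thus near that of other genes as abundant. The median slope of the factors was -0.43 log2 per hour against -0.46 in WT. All genes had medians of -0.48 and -0.36, and genes of similar abundance -0.50 and -0.45. With files summed, 42 factors fell in Nat10-deficient-labelled libraries and 46 in WT, against 35.4% and 26.7% of all genes.

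The factors' median fell most steeply in the first hour. The median log2 change of the factors from 0 h was -1.46, -2.07 and -2.40 at 1, 3 and 5 h in Nat10-deficient-labelled libraries, and -1.33, -2.03 and -2.61 in WT. A straight line over the hours is therefore a summary of a curve. Genes of similar abundance also fell early, with medians of -1.37, -2.02 and -2.79 against -1.09, -1.62 and -2.48 in WT. Single factors differed, and Utp20 in WT stood at -0.49 at 1 h and -4.03 at 5 h. Relative to other mRNAs (TMM scaling) the factors' medians were -0.11, -0.19 and 0.31 against -0.39, -0.83 and -0.40 in WT. On that scale 30 factors rose over the hours and 13 fell in Nat10-deficient-labelled libraries, against 29.0% and 31.8% of all genes, whereas 4 rose and 34 fell in WT, against 28.1% and 31.2%. With TMM scaling and files summed, a choice made after seeing the data, 1 factor passed in each genotype, as falling, against 1.14% of all genes in Nat10-deficient-labelled libraries and 1.85% in WT.

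**Figure D3:**
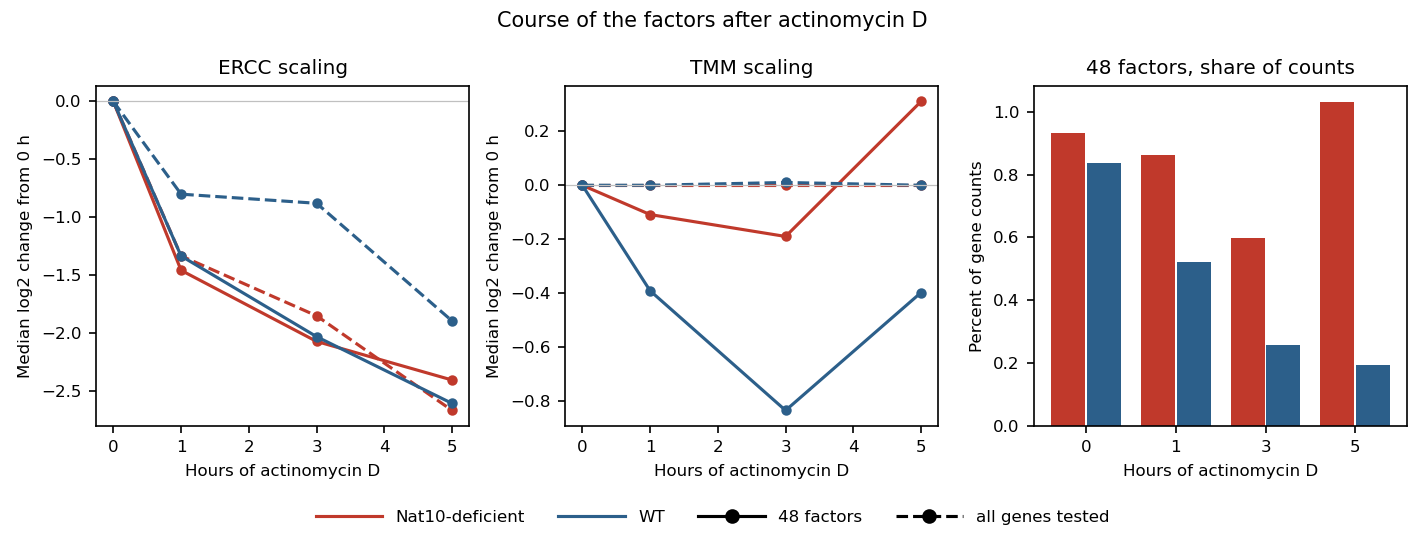
Median log2 change from 0 h of the 48 factors (solid) and of all genes tested (dashed) with ERCC scaling (left) and TMM scaling (middle), and the factors' percent of gene counts (right, group means of 2 files), by hours of actinomycin D. With ERCC scaling the 2 genotypes' solid lines run close together, and with TMM scaling the WT line runs below that of Nat10-deficient-labelled libraries.

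Rrs1 had the steepest slope in Nat10-deficient-labelled libraries, -0.88 ± 0.01 log2 per hour, and nearly the same in WT (-0.85 ± 0.016). Its CPM with TMM factors were 189.8 and 188 CPM at 0 h, 113 and 105.4 CPM at 1 h, 67.5 and 69.2 CPM at 3 h and 45.8 and 46.2 CPM at 5 h, against 92.4 and 86.4 CPM at 0 h, 67.3 and 59.5 CPM at 1 h, 29.1 and 29.8 CPM at 3 h and 18.6 and 20.3 CPM at 5 h in WT, so it lost level relative to other mRNAs too. Gnl3 (-0.77 ± 0.0095), Brix1 (-0.71 ± 0.0098) and Tsr1 (-0.67 ± 0.012) came next, with WT slopes of -0.60 ± 0.011, -0.53 ± 0.013 and -0.50 ± 0.015. The shallowest slopes in Nat10-deficient-labelled libraries were those of Noc2l (-0.27 ± 0.023), Npm1 (-0.28 ± 0.0065), Ddx51 (-0.30 ± 0.029) and Bop1 (-0.31 ± 0.011). In WT the steepest were Utp18 (-0.91 ± 0.035), Rrs1, Utp20 (-0.78 ± 0.022) and Nop58 (-0.76 ± 0.0089). Bms1, a GTPase of the processome (-0.35 ± 0.013), Bop1 (-0.36 ± 0.017), Polr1a (-0.36 ± 0.013) and Heatr1 (-0.37 ± 0.014) were the shallowest there. By role, the medians ran from -0.46 for small subunit factors to -0.36 for the proteins with several roles in Nat10-deficient-labelled libraries, and from -0.50 to -0.41 for the same roles in WT.

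Rrs1 alone was among the 4 steepest in both genotypes, and Bop1 alone among the 4 shallowest. The correlation of the genotypes' slopes was r = 0.63 (rho = 0.60) across the 48 genes, r = 0.20 (rho = 0.26) across all genes tested and r = 0.44 (rho = 0.50) across those of similar abundance, as a description of genes that share libraries within a genotype. The slope's correlation with exonic length was r = -0.07 in both genotypes, and that with level per length was r = -0.08 against 0.13 in WT.

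Tested directly, the slope differed between genotypes for 30 factors. It was less steep in Nat10-deficient-labelled libraries for 20 and steeper for 10, against 15.7% and 32.1% of all genes and 25.3% and 49.4% of genes of similar abundance. The median difference was 0.02 log2 per hour, against -0.10 for all genes. The largest positive differences were those of Utp20 (0.33 ± 0.029, adjusted p = 1.3e-29), Utp18 (0.29 ± 0.05), Nop58 (0.22 ± 0.011, adjusted p = 5.04e-79) and Ddx51 (0.20 ± 0.048). The largest negative ones were those of Brix1 (-0.18 ± 0.017, adjusted p = 3.34e-25), Tsr1 (-0.17 ± 0.021), Gnl3 (-0.16 ± 0.016) and Nop14 (-0.10 ± 0.022). These p-values are from edgeR. For Npm1 the difference was 0.14 ± 0.0098, and for the 4 polymerase I genes none passed.

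**Figure D4:**
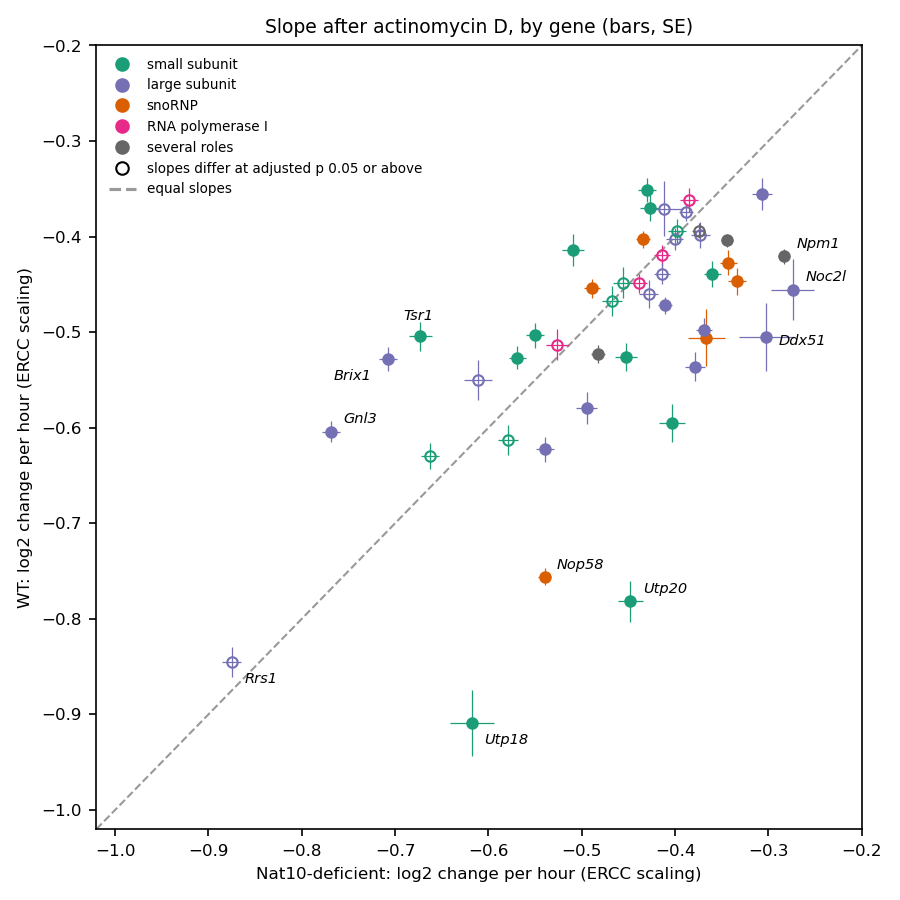
Slope of each factor over 0 to 5 h in log2 per hour with ERCC scaling, libraries labelled Nat10-deficient on the horizontal axis and WT on the vertical axis, with SE bars. Filled points differ between genotypes at adjusted p under 0.05. Points under the dashed line, such as Utp20 and Nop58, fell less steeply in Nat10-deficient-labelled libraries, and those above it, such as Gnl3 and Brix1, more steeply.

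Levels in CPM with TMM factors show the courses of single genes relative to other mRNAs, and not on the ERCC scale of the slopes. On the ERCC scale Utp20 changed by -1.31, -2.27 and -2.38 log2 from 0 h at 1, 3 and 5 h in Nat10-deficient-labelled libraries. In WT it changed by -0.49, -1.33 and -4.03. Utp20 read 43.6 and 40.2 CPM at 0 h, 44.1 and 41.8 CPM at 1 h, 32.4 and 31.4 CPM at 3 h and 49.2 and 56.3 CPM at 5 h in Nat10-deficient-labelled libraries. In WT it read 38.4 and 37.6 CPM at 0 h, 51.5 and 52.6 CPM at 1 h, 34.2 and 35.0 CPM at 3 h and 10.3 and 11.0 CPM at 5 h, so the genotypes were close until 3 h and far apart at 5 h, with the pairs of files separate at each time. Nop58 read 488 and 491 CPM at 0 h, 359 and 368 CPM at 1 h, 302 and 307 CPM at 3 h and 389 and 412 CPM at 5 h against, in WT, 527 and 529.7 CPM at 0 h, 279 and 288 CPM at 1 h, 169 and 159 CPM at 3 h and 148 and 137 CPM at 5 h, a gap that widened from 1 to 5 h. Gnl3 read 197 and 201 CPM at 0 h, 119.7 and 123 CPM at 1 h, 83.3 and 91.9 CPM at 3 h and 71.2 and 68.4 CPM at 5 h against, in WT, 174 and 169.8 CPM at 0 h, 89.8 and 93.1 CPM at 1 h, 70.2 and 67.3 CPM at 3 h and 75.2 and 76.5 CPM at 5 h, higher at 0, 1 and 3 h and below WT at 5 h, where the difference did not pass. Utp18 was counted 17 to 426 times per library and read 17.7 and 17.8 CPM at 0 h, 10.2 and 9.45 CPM at 1 h, 7.08 and 5.91 CPM at 3 h and 10.6 and 11.4 CPM at 5 h against, in WT, 22.1 and 22.3 CPM at 0 h, 13.4 and 15.6 CPM at 1 h, 8.36 and 5.68 CPM at 3 h and 3.72 and 3.52 CPM at 5 h.

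The slope differences hang on 5 h and on the scaling. Over 0, 1 and 3 h only, a choice made after seeing the data, 11 factors were less steep in Nat10-deficient-labelled libraries and 23 steeper, against 10.2% and 43.4% of all genes, and the differences of Utp20 and Utp18 turned to -0.28 and -0.13. With TMM scaling 40 were less steep and 3 steeper, against 24.5% and 24.2% of all genes, and with files summed 0 passed in edgeR (0 at an unadjusted p under 0.05, 10 of all genes higher and 60 lower).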

How the data were processed

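The members, their roles and the lists were chosen with earlier results of these data known. The 16 deposited files hold counts per gene, made by the authors with featureCounts 1.6.3 on exons with paired reads and no strand, per the file headers; the annotation named there is a mouse Ensembl set for GRCm39 with ERCC sequences. STAR and DESeq2 are named in the submitters' processing notes, without a role. Libraries were Smart-seq2 from polyA RNA, per the labels' protocols. Lengths of exons in the deposited count files, another unit, gave the levels per length.

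Genes were filtered by expression with edgeR 4.0.16 (R 4.3.3, limma 3.58.1), which left 25081 of 55414. Quasi-likelihood F tests over all 16 libraries used TMM factors for genotype comparisons at each time and for their mean, and ERCC counts as library sizes for linear slopes over hours, with Benjamini-Hochberg adjustment over all genes and a threshold of 0.05. The "similar abundance" set holds the 8613 genes tested with a mean log2 CPM at or above that of the least abundant member. Errors beside log2 values are standard errors. Values per library were shown by rule for Nat10, the 2 most abundant members of each role, and the 4 largest and 4 smallest differences of each comparison, with the 3 largest and 3 smallest of the other genes for their mean; other members were named after their values were seen. The fit was tested on simulated data. The standard errors cover only counting error and the spread between the files of a group, which may be technical. DESeq2 1.42.0, other scalings, no filter, a replicate block, leaving out each file and summed files were alternatives.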

Additional observations from a re-analysis of the deposited data

Results flagged for a closer look

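A test of the difference between genotypes drew attention to the slopes over the hours of actinomycin D (ERCC scaling, edgeR quasi-likelihood test of the difference, Benjamini-Hochberg adjustment). By it 20 of the 48 factors fell less steeply in Nat10-deficient-labelled libraries than in WT, and 10 fell more steeply. The shares were 15.7% and 32.1% of all genes, and 25.3% and 49.4% of genes of similar abundance. Utp20 differed by 0.33 log2 per hour, Utp18 by 0.29, Nop58 by 0.22 and Ddx51 by 0.20. Brix1 differed by -0.18 log2 per hour, Tsr1 by -0.17, Gnl3 by -0.16 and Nop14 by -0.10. In the fit on summed files, the spread is the departure of the courses from a straight line, so it cannot stand for a spread between replicates. With the files of each group summed, 0 of the 48 differed in edgeR, and 0 had an unadjusted p under 0.05.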

How the results depend on the processing

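A replicate block was made of the replicate numbers. With it 37, 42, 44, 46 and 46 factors were higher at 0, 1, 3 and 5 h and for the mean. The shares of all genes were 35.2%, 32.0%, 30.2%, 33.7% and 31.5%. All 48 factors fell in each genotype, against 71.0% of all genes in Nat10-deficient-labelled libraries and 57.3% in WT. The fall was less steep in Nat10-deficient-labelled libraries for 21, against 15.6% of all genes. Of the other ribosome biogenesis genes, 86 were higher. Same-numbered files did not deviate together (28 pairs, correlations of -0.00335 to 0.0372). Leaving out 1 file at a time gave 36 to 38, 41 to 43, 43 to 44, 44 to 46 and 46 to 47 factors higher, 48 falling in each genotype, 17 to 20 with a less steep fall, and 85 to 88 other genes higher. Shares of all genes are not given for these fits.

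Scaling on long-lived mRNAs called 16, 23, 21, 38 and 26 factors higher at 0, 1, 3 and 5 h and over their mean. Of all genes, 20.9%, 17.1%, 12.3%, 22.8% and 13.7% were higher. This scaling called 20, 15, 15, 4 and 9 factors lower, against 39.4%, 49.4%, 57.9%, 39.3% and 38.7% of all genes. The fall was less steep for 35 factors, against 21.5% of all genes, and 40 of the other ribosome biogenesis genes were higher. All genes moved by -0.40, -0.56, -0.78, -0.55 and -0.57. TMM scaling left 13 factors falling in Nat10-deficient-labelled libraries, against 31.8% of all genes, and 40 with a less steep fall, against 24.5%. Times to 3 h only, chosen after seeing the data, gave 11 with a less steep fall, against 10.2% of all genes. Summed files gave 0 factors at 0 h (read from a line over the hours, so not from summing alone), 0 for the mean, 0 for the slope difference and 0 other genes. A 1.5-fold minimum left 10 factors higher and 2 lower at 0 h, against 24.0% and 18.2% of all genes. A minimum of 0.1 log2 per hour left 11 factors less steep and 3 steeper, against 13.1% and 29.2% of all genes. DESeq2 called 34, 40, 38, 44 and 46 factors higher at 0, 1, 3 and 5 h and for the mean. Of all genes it called 26.6%, 25.7%, 20.8%, 28.3% and 26.4% higher. It called 6, 3, 3, 1 and 0 factors lower, against 22.7%, 30.8%, 36.8%, 29.7% and 30.1% of all genes. All 48 factors fell in each genotype, against 70.1% of all genes in Nat10-deficient-labelled libraries and 57.1% in WT. The fall was less steep for 19 and steeper for 10, against 15.3% and 34.2% of all genes. The cause of these changes was not tested.

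Some single genes changed sign. ERCC scaling moved all genes upward by 5.43 to 6.13, so a lower value of this size turns by construction; these were, at 0 h, Ddx51 (5.45), Noc2l (5.55), Utp18 (5.82) and Nop58 (6.03); at 1 h, Utp18 (5.18), Ddx51 (5.23) and Utp20 (5.46); at 3 h, Rrp1b (5.33), Utp18 (5.33), Utp20 (5.34) and Nop14 (5.42); at 5 h, Gnl3 (5.52) and Tsr1 (5.60); and for the mean, Utp23 (5.47), Taf1b (5.53) and Riok1 (5.57). With long-lived mRNAs they were Rrn3 (-0.039), Ubtf (-0.14), Ddx51 (-0.49), Utp18 (-0.42), Gnl3 (-0.36) and Nop56 (-0.20) for the mean, Ubtf at 1 h (-0.51), and Brix1 (-0.36) and Nop56 (-0.18) at 5 h. Without immunoglobulin genes Gnl3 (0.24) and Tsr1 (0.31) at 5 h turned. Slopes in Nat10-deficient-labelled libraries turned with TMM and with long-lived mRNAs for Noc2l (0.21 and 0.080), Npm1 (0.20 and 0.071), Ddx51 (0.18 and 0.051) and Bop1 (0.18 and 0.047). WT slopes turned with TMM for Bms1 (0.043), Bop1 (0.039), Polr1a (0.032) and Heatr1 (0.024). To 3 h only, Utp18 (-0.33) and Utp23 (0.30) turned for the mean, and Utp20 (-0.28) and Utp18 (-0.13) for the slope difference. Low counts limit Utp18 and Ddx51.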
